A study of Homo sapiens with 6 samples.

Results

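Integrins are the transmembrane receptors through which cells hold on to extracellular matrix, and laminins are the large glycoproteins that build the basement membrane many of them bind. These genes were followed in ES-2, an established cell line that the labels place among clear cell carcinomas of the ovary. Members were chosen by symbol alone: every probe annotated to an integrin alpha subunit, to the integrin beta subunits 1 to 8 or to a laminin alpha, beta or gamma chain. This gave 57 of 48803 probes and 36 of 18852 named genes, 26 of them integrins and 10 laminins. The laminin chain LAMA3 is not analysed here.

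Cells of one group had been transfected with a hairpin inhibitor of the microRNA hsa-mir-182 at 50 nM. Cells of the other group received a negative control hairpin inhibitor, whose sequence comes from a worm microRNA and whose concentration the labels do not give. All cells were ES-2, were grown in serum, went through transfection and gave total RNA 48 h later. Each group had 3 biological replicates with 1 Illumina bead array each, and the design text, which calls the treatment a mimic, asks what loss of this microRNA changes. Whether the replicates were separate cultures is not stated beyond the word biological. The p-values set each difference against the spread between these samples, which may or may not be that of separate cultures.

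An integrin is a pair of one alpha and one beta subunit. The alpha subunit largely sets the ligand, while the tail of the beta subunit binds talin and kindlin, which tie the receptor to actin. A laminin is a trimer of one alpha, one beta and one gamma chain, assembled inside the cell before secretion. In ovarian carcinoma these receptors are known for attachment of tumour cells to the lining of the peritoneum.

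An inhibitor of this kind acts on a mature microRNA. RefSeq lists a 5p and a 3p form of miR-182, and the sample labels do not say which was targeted. The 5p form was chosen here. It is shown with the seed, bases 2 to 8, in capitals because the seed is the stretch that pairs with target transcripts. RefSeq places it on the minus strand of GRCh38.p14 at chr7:129770447-129770470. A transcript with the letters UUGCCAA holds a perfect match to that seed, and no transcript sequence was searched for it here.
hsa-miR-182-5p: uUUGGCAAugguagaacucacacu

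On each array 20365 to 22473 probes stood above background (detection p under 0.05), with a median of 40 to 41 beads per probe. Across the 12087 genes tested, 2 arrays of one group correlated at 0.997 to 0.998 and 2 of different groups at 0.996 to 0.998. Among markers of the labelled cell type, the keratins KRT7, KRT8 and KRT18 were detected on all 6 arrays. CDH1 (E-cadherin), KRT19 and NAPSA, the last a marker of clear cell carcinoma, were detected on 0 arrays. EPCAM was detected on 2 arrays and PAX8, a transcription factor of Müllerian epithelium, on 3. Of the other clear cell markers, ANXA4 (annexin A4) and SPP1 (osteopontin) were detected on all 6 arrays. ANXA4 differed by -0.27 ± 0.09 between inhibitor and control (unadjusted p = 0.0164, adjusted p = 0.601 in limma), with every inhibitor value below every control value. Of all genes tested, 6.23% separated in that direction and 7.66% had an unadjusted p under 0.05 in limma. The ANXA4 probe was dim, at 52.1 to 62.3 intensity units, and the part of ANXA4 in the members' values was not tested. No probe used here was named for miR-182, so its level was not measured, and the arrays read transcripts, not surface proteins. The RNA came from whole cultures, in which fewer cells of a type and less RNA per cell cannot be told apart.

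ES-2 cells expressed a broad but incomplete set of these genes. Of the 36 members, 20 were detected on all 6 arrays, 3 on 3 to 5, 5 on 1 or 2, and 8 on none. The 23 genes detected on at least 3 arrays made up 63.9% of the members, beside 64.1% of all named genes. Detected alpha subunits were ITGA1, ITGA2, ITGA3, ITGA4, ITGA5, ITGA6, ITGA7, ITGA10, ITGAE and ITGAV. Detected beta subunits were ITGB1, ITGB2, ITGB3, ITGB5 and ITGB8, and detected laminin chains were LAMA2, LAMA4, LAMA5, LAMB1, LAMB2, LAMB3, LAMB4 and LAMC1. The 13 members below the filter were ITGA2B, ITGA8, ITGA9, ITGA11, ITGAD, ITGAL, ITGAM, ITGAX, ITGB4, ITGB6, ITGB7, LAMA1 and LAMC3. Brightness depends on the probe as well as on the transcript, so levels of different genes are not set against each other.

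**Figure D1:**
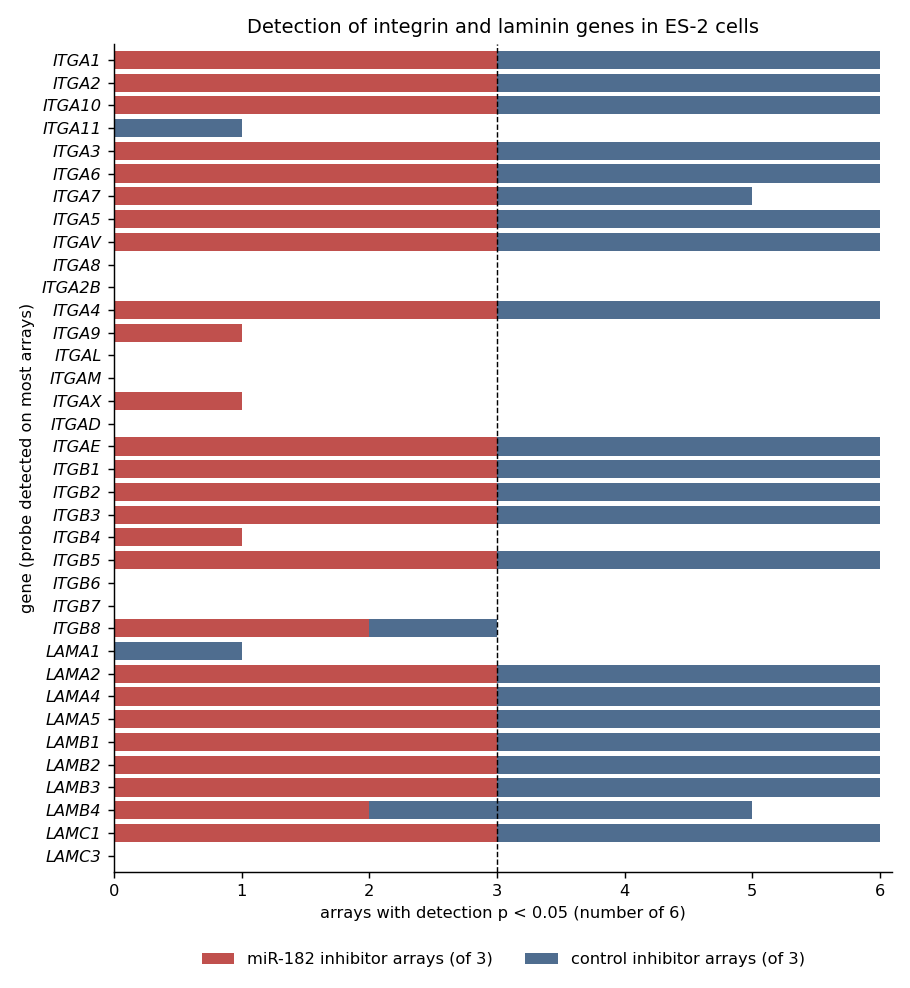
Number of arrays, of 6, on which each of the 36 genes was brighter than background (detection p under 0.05), by its most often detected probe. The miR-182 inhibitor arrays are stacked first and the control inhibitor arrays after them, and the dashed line marks the 3 arrays needed to enter the tests. 20 genes reach 6 arrays and 8 have no bar.

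Of 24 integrin pairs known from textbooks, both subunits were detected for 12. These were 3 of the 4 collagen receptors, 3 of the 4 laminin receptors, 5 of the 8 receptors for RGD ligands such as fibronectin and vitronectin, and 1 of the 8 pairs made by leukocyte subunits or by ITGA4 and ITGA9. Among these 12, the pair of ITGA7 with ITGB1 rested on 5 arrays for ITGA7, and that of ITGAV with ITGB8 on 3 for ITGB8. The laminin receptor left out was that of ITGA6 with ITGB4, the integrin of hemidesmosomes. All 4 probes of ITGB4 stayed near background, 2 of them detected on no array and the other 2 on 1 array each, at 37.0 to 53.4 intensity units. Of 14 laminin trimers, all chains were detected for 6 (LAMA2, LAMA4 or LAMA5, each with LAMB1 or LAMB2 and LAMC1), a chain was missing for 5 that need LAMA1 or LAMC3, and 3 contain LAMA3. A transcript of each chain does not show that a trimer was assembled.

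No integrin or laminin gene passed the comparison between groups. Of the 23 members tested, limma called 0 in either direction (adjusted p under 0.05), beside 0 of all 12087 genes (0%). The lowest adjusted p among members was 0.548. At an unadjusted p under 0.05 there was 1 member, LAMA2, beside 926 of all genes (7.66%). In the direction of LAMA2, with less signal under the inhibitor, 4.16% of all genes reached that unadjusted threshold, and 3.5% did so in the other direction, where there were 0 members. The differences of the members (inhibitor minus control, log2) ran from -0.28 to 0.18, with 11 above and 12 below 0 and a median of -0.0016. The median over all genes tested was -1e-05, and 50% of them lay above 0.

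The 3 values of one group lay apart from those of the other in 2 members, LAMA2 and ITGB5, both with the inhibitor values below. Over all genes such separation, in either direction, occurred in 13%, with the inhibitor values below in 6.23% and above in 6.8%. For 22 of the 23 members the 95% interval of the difference included 0. For all 23 it stayed within a 1.5-fold change to either side, as it did for 11967 of all 12087 genes. This bounds the log2 values, which hold an offset of 16, and not the transcript levels of dim probes. The median between-replicate SD of the members was 0.102 log2 units, while their beads alone gave a median error of 0.0645.

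**Figure D2:**
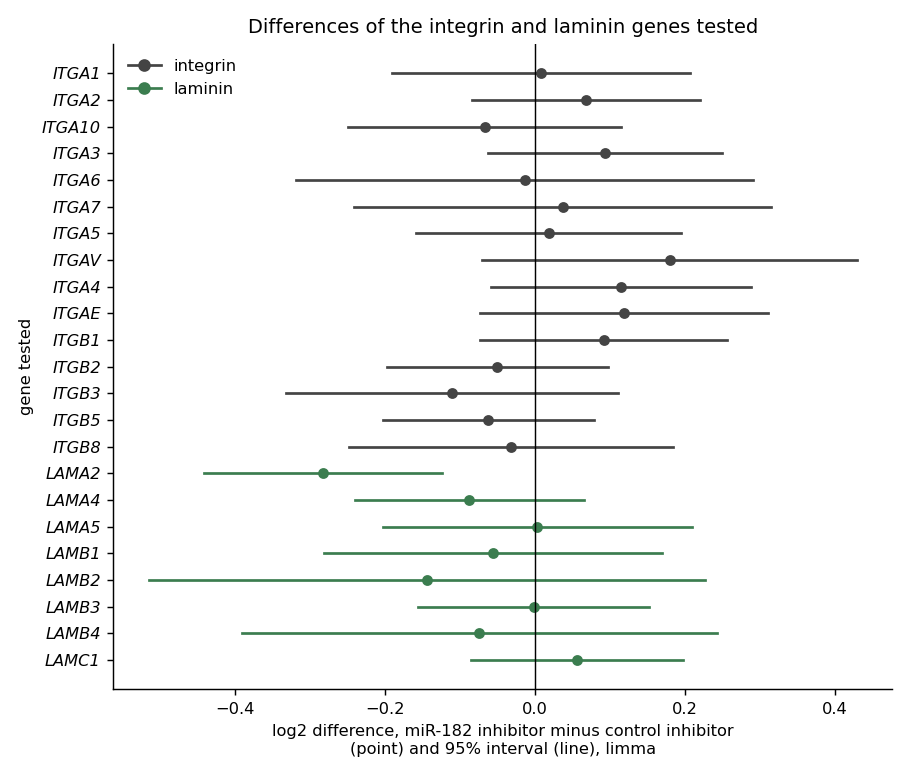
Log2 difference of each of the 23 genes tested, miR-182 inhibitor minus control inhibitor (points), with its 95% interval from limma (lines; n = 3 arrays per group), integrins in grey and laminins in green. The points run from -0.28 for LAMA2 to 0.18 for ITGAV, and the interval of LAMA2 alone leaves out 0.

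Among the collagen-binding alpha subunits, ITGA1, ITGA2 and ITGA10 were detected on all 6 arrays and ITGA11 on 1 control array. ITGA2, the alpha subunit of the main collagen receptor of platelets and epithelia, had log2 values of 8.50, 8.54 and 8.48 on the inhibitor arrays, against 8.51, 8.46 and 8.35 on the control arrays. The groups overlapped, and the difference was 0.07 ± 0.07 (SE; adjusted p = 0.843 in limma), or 0.023 without control replicate 3 and 0.105 without control replicate 1. ITGA1, which with ITGB1 binds collagen IV, had 5.26, 5.27 and 5.32 on the inhibitor arrays, against 5.26, 5.45 and 5.11 on the control arrays. The highest and the lowest of these 6 values were both control arrays, and the difference was 0.01 ± 0.09. ITGA10, described mostly in cartilage, had 8.28, 8.33 and 8.10 on the inhibitor arrays, against 8.40, 8.26 and 8.25 on the control arrays. Its lowest value was an inhibitor array and its highest a control array, with a difference of -0.07 ± 0.08.

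All 3 alpha subunits grouped here as laminin receptors were detected. ITGA3, a receptor subunit for laminins with the alpha-5 chain, had 11.53, 11.69 and 11.62 on the inhibitor arrays, against 11.56, 11.46 and 11.54 on the control arrays. One inhibitor value lay inside the control range, and the difference was 0.09 ± 0.07 (adjusted p = 0.777 in limma, 95% interval -0.06 to 0.25). A second, dimmer probe of ITGA3 gave 0.06.

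ITGA6, which pairs with ITGB1 or ITGB4, had 8.72, 8.34 and 8.65 on the inhibitor arrays, against 8.63, 8.80 and 8.31 on the control arrays. Both groups held 1 array well under the rest, inhibitor replicate 2 and control replicate 3, and the difference was -0.01 ± 0.14, which was 0.103 without inhibitor replicate 2 and -0.147 without control replicate 3. Another probe of ITGA6 gave -0.09, and the last was detected on 1 inhibitor array only. ITGA7, the laminin receptor subunit of muscle, was detected on 3 inhibitor and 2 control arrays. Its values were 4.81, 4.68 and 4.85 on the inhibitor arrays, against 5.03, 4.72 and 4.49 on the control arrays. The control arrays spread wider than the inhibitor arrays and enclosed them, and the difference was 0.04 ± 0.12.

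Of the alpha subunits that recognise RGD ligands, ITGA5 and ITGAV were detected on all 6 arrays, ITGA8 and the platelet subunit ITGA2B on none. ITGAV, shared by several receptors for vitronectin and for latent TGF-beta, had 8.73, 8.66 and 8.77 on the inhibitor arrays, against 8.57, 8.76 and 8.28 on the control arrays. The inhibitor arrays lay close together, while control replicate 3 lay lowest of all. The difference was 0.18 ± 0.11 (95% interval -0.07 to 0.43, adjusted p = 0.729 in limma), the farthest above 0 among the members, and it was 0.052 without control replicate 3 and 0.291 without control replicate 2, where the 95% interval, 0.063 to 0.52, left out 0. ITGA5, which forms the classical fibronectin receptor with ITGB1, had 10.06, 10.02 and 9.88 on the inhibitor arrays, against 9.90, 9.93 and 10.08 on the control arrays. The groups overlapped throughout, and the difference was 0.02 ± 0.08.

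The remaining alpha subunits are mostly known from white blood cells. ITGA4, the subunit of the receptor for VCAM1 and fibronectin, had 7.24, 7.33 and 7.35 on the inhibitor arrays, against 7.06, 7.27 and 7.24 on the control arrays. Control replicate 1 lay lowest, the other two control values overlapped with the inhibitor values, and the difference was 0.11 ± 0.08 (adjusted p = 0.745 in limma), or 0.049 without control replicate 1. ITGAE, known from intraepithelial T cells as the partner of ITGB7, was detected on all 6 arrays, with 9.69, 9.91 and 9.61 on the inhibitor arrays, against 9.59, 9.60 and 9.67 on the control arrays. Inhibitor replicate 2 lay above all others, and the difference of 0.12 ± 0.09 was 0.031 without that array and 0.181 without inhibitor replicate 3.

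ITGB7 itself was detected on 0 arrays, at 39.5 to 46.7 intensity units. ITGAL, ITGAM and ITGAD were also detected on 0 arrays, and ITGA9 and ITGAX on 1 inhibitor array each. All 4 partners of ITGB2 were thus below the filter.

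**Figure D3:**
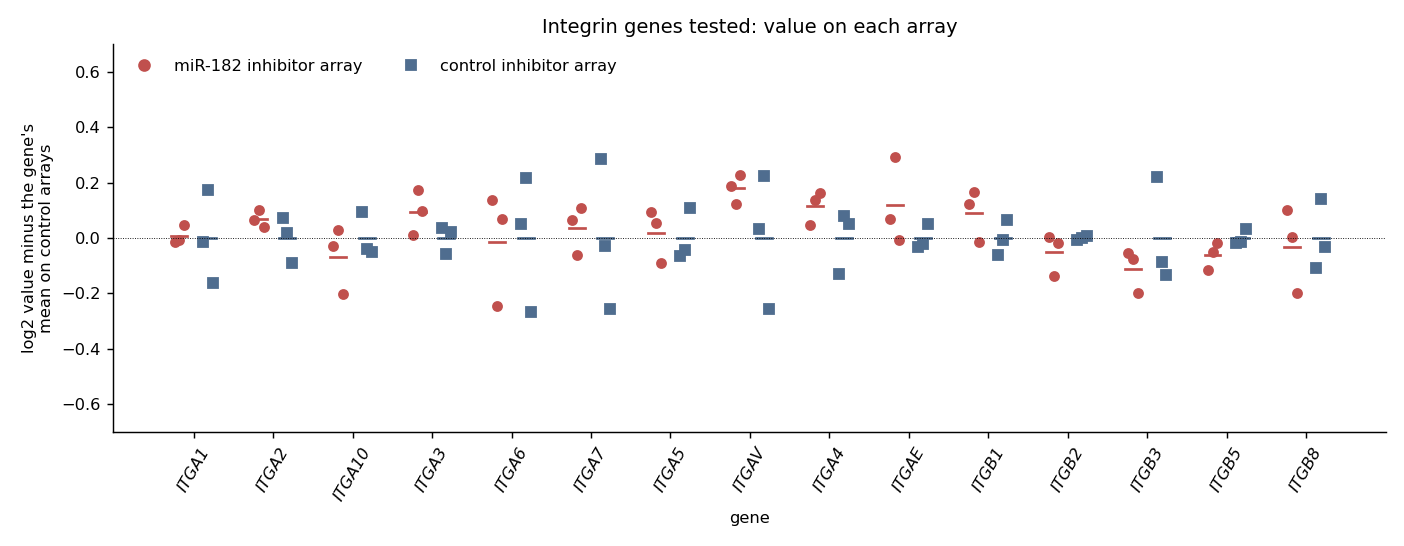
Values of the 15 integrin genes tested on each array, as log2 value minus the gene's own mean on the control arrays; circles are miR-182 inhibitor arrays, squares control inhibitor arrays and short lines group means (n = 3 each). The groups overlap for every gene shown except ITGB5, and ITGA1, ITGA2, ITGA6, ITGA7 and ITGAV have control replicate 3 as their lowest point.

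ITGB1 is the common partner of most alpha subunits, and it was measured by 4 probes. Its brightest probe had 13.23, 13.27 and 13.09 on the inhibitor arrays, against 13.05, 13.10 and 13.17 on the control arrays. One inhibitor value lay among the control values, and the difference was 0.09 ± 0.07 (95% interval -0.07 to 0.26, adjusted p = 0.797 in limma). Of the other probes, one gave 0.14 ± 0.09, one gave 0.0005 and one was detected on 0 arrays. ITGB5, which with ITGAV binds vitronectin, had 11.44, 11.50 and 11.54 on the inhibitor arrays, against 11.54, 11.54 and 11.59 on the control arrays. The inhibitor values all lay just under the control values, with a difference of -0.06 ± 0.06 (adjusted p = 0.847 in limma). The other 2 detected probes of ITGB5 gave 0.08 and 0.04 in the opposite direction, and the last 2 of its 5 probes were detected on 0 arrays.

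ITGB2, the beta subunit of the leukocyte integrins, was bright by both of its probes, at 1865.1 to 2164.8 intensity units for one and 1260.2 to 1525.9 for the other, although none of its alpha partners passed the filter. The control arrays of the brighter probe lay between 10.9976 and 11.0107 on the log2 scale, a narrow band, and the inhibitor arrays at 11.01, 10.87 and 10.99. The groups overlapped, and the difference was -0.05 ± 0.07 (adjusted p = 0.89 in limma), or -0.0069 without inhibitor replicate 2 and -0.077 without inhibitor replicate 1. Of 5 leukocyte markers with a probe, PTPRC, which encodes CD45, was detected on 0 arrays by any of its 4 probes and CD3E on 1 array. CD14 and CD68 were detected on all 6 arrays and LYZ on 4. The summed signal of the 5 genes was 2042.9 to 2377.4 intensity units on inhibitor arrays and 2200.4 to 2426.6 on control arrays, of which CD68 alone made up 1842.7 to 2223.5.

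ITGB3, known from platelets and from vessel walls, had 5.53, 5.51 and 5.38 on the inhibitor arrays, against 5.80, 5.50 and 5.45 on the control arrays. Control replicate 1 lay highest, and the difference of -0.11 ± 0.10 came to -0.00094 without that array. Of 4 platelet markers, GP1BA was detected on all 6 arrays, PPBP on 1 and GP9 and PF4 on 0, and their summed signal was 225.6 to 240.6 intensity units on inhibitor arrays and 200 to 222.3 on control arrays before normalization, where median signals of all probes were 47.2 to 49.4 on inhibitor arrays and 43.5 to 47.8 on control arrays. After normalization GP1BA differed by 0.12 ± 0.09 with overlapping groups (adjusted p = 0.768 in limma), and its part in the values of ITGB3 was not tested. ITGB8, which with ITGAV activates latent TGF-beta, was at the edge of detection, above background on 2 inhibitor arrays and 1 control array, with 4.69, 4.59 and 4.39 on the inhibitor arrays, against 4.48, 4.73 and 4.56 on the control arrays. The groups overlapped, and the difference was -0.03 ± 0.10. ITGB6, the epithelial partner of ITGAV, was detected on 0 arrays at 34.7 to 38.7 intensity units.

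Among laminin alpha chains, LAMA2 had the smallest p of all members. LAMA2 encodes the alpha chain of the laminin of muscle and nerve, known for its loss in a congenital muscular dystrophy. It had 4.88, 4.91 and 5.00 on the inhibitor arrays, against 5.13, 5.29 and 5.21 on the control arrays. Every inhibitor value lay below every control value. The means were 4.93 ± 0.06 with the inhibitor and 5.21 ± 0.08 with the control (SD, n = 3 each), and the difference was -0.28 ± 0.07 (SE; 95% interval -0.44 to -0.12), which limma gave an adjusted p of 0.548, so that it did not pass.

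This probe was dim, at 55.6 to 63.7 intensity units, and its bead error was 0.126 log2 units per array. Its difference was -0.126 without background correction, -0.141 with a larger offset and -0.149 in the authors' deposited values. Over all alternatives limma's adjusted p lay between 0.397 and 1. A second probe of LAMA2, annotated to another transcript, was detected on 1 array of each group and differed by 0.0087.

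LAMA4, a chain of the laminins of blood vessels, had 8.11, 8.19 and 8.12 on the inhibitor arrays, against 8.22, 8.15 and 8.31 on the control arrays. One control value lay among the inhibitor values, and the difference was -0.09 ± 0.07 (adjusted p = 0.789 in limma), with 0.05 for its second probe. LAMA5, the alpha chain of most epithelial basement membranes, had 9.97, 9.87 and 9.71 on the inhibitor arrays, against 9.98, 9.83 and 9.72 on the control arrays. The 2 groups covered nearly the same range, and the difference was 0.0035 ± 0.0913. LAMA1, the chain of the earliest embryonic basement membranes, was detected on 1 control array by one of its 2 probes.

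All 4 beta chains passed the filter. LAMB1, the beta chain of many early and vascular basement membranes, had 8.92, 9.15 and 9.11 on the inhibitor arrays, against 8.92, 9.20 and 9.23 on the control arrays. The lowest values of the groups were alike, the groups overlapped, and the gene differed by -0.06 ± 0.10, and by 0.08 with its second probe. LAMB2, the beta chain of synapses and of the kidney filter, had 6.45, 6.32 and 5.76 on the inhibitor arrays, against 6.17, 6.28 and 6.50 on the control arrays. Inhibitor replicate 3 lay lowest by far. The difference was -0.14 ± 0.16, the widest interval among the members (-0.51 to 0.23), and 0.064 without that array.

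LAMB3, a beta chain known from the skin's anchoring structures, was clearly detected by its 3 probes. The brightest had 10.05, 10.16 and 10.15 on the inhibitor arrays, against 10.06, 10.11 and 10.20 on the control arrays. The groups overlapped fully, with a difference of -0.0016 ± 0.0685, and the other probes gave 0.06 and -0.06. LAMB4 was dim and was detected on 2 inhibitor and 3 control arrays. Its values of 5.13, 4.48 and 4.71 on the inhibitor arrays, against 4.88, 4.77 and 4.88 on the control arrays spread widely with the inhibitor, and the difference was -0.07 ± 0.14. It was 0.074 without inhibitor replicate 2 and -0.252 without inhibitor replicate 1, where the 95% interval, -0.461 to -0.043, left out 0.

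LAMC1 is the gamma chain shared by all 6 trimers whose chains were detected. It had 11.67, 11.70 and 11.63 on the inhibitor arrays, against 11.56, 11.61 and 11.66 on the control arrays. The inhibitor values lay toward the top of the common range, and the difference was 0.06 ± 0.06 (adjusted p = 0.866 in limma). LAMC3 was detected on 0 arrays, at 38.0 to 44.2 intensity units. Of the 8 laminin chains tested, 2 lay above 0 and 6 below, with a median of -0.06, and of the 15 integrin subunits 9 lay above and 6 below, with a median of 0.02. The difference between these medians was not tested.

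**Figure D4:**
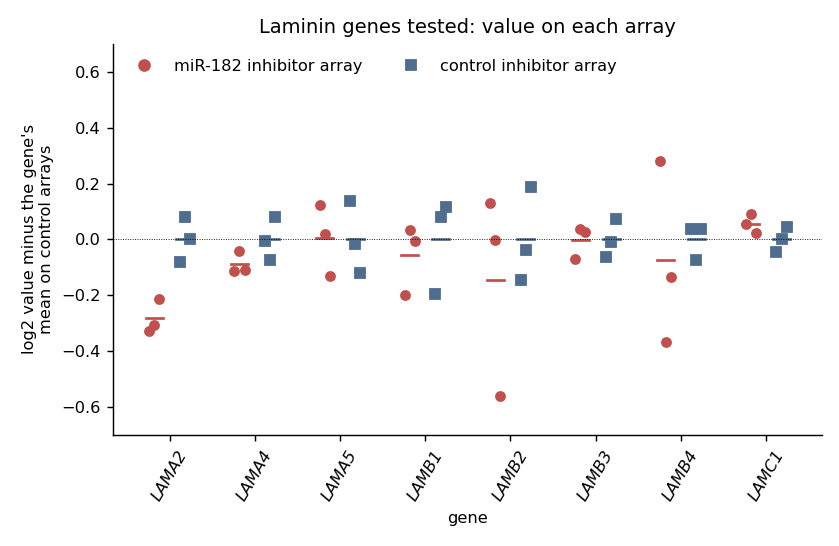
Values of the 8 laminin genes tested on each array, as log2 value minus the gene's own mean on the control arrays; circles are miR-182 inhibitor arrays, squares control inhibitor arrays and short lines group means (n = 3 each). LAMA2 is the one gene whose groups lie apart, and LAMB2 and LAMB4 show the widest spread of inhibitor arrays.

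Several members were measured more than once. Of the 57 probes, 31 were detected on all 6 arrays, 11 on 1 to 5 and 15 on none. In 8 genes at least 2 probes passed the filter. The differences of those probes shared a sign in ITGA3, ITGA6, ITGB1 and ITGB2 and took both signs in ITGB5, LAMA4, LAMB1 and LAMB3. Their intervals overlapped in each gene, as the plot of probes of one gene shows.

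**Figure D5:**
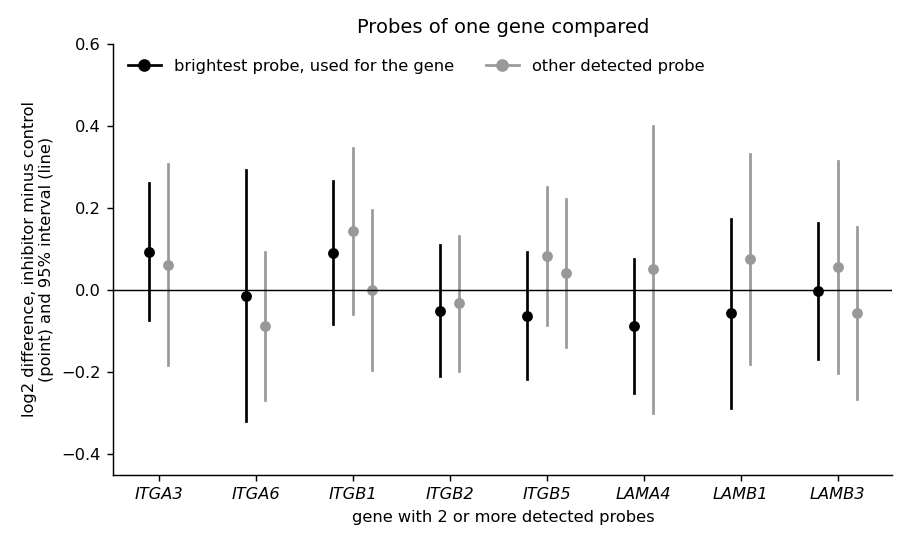
Log2 difference, miR-182 inhibitor minus control inhibitor, of every detected probe of the 8 genes with 2 or more (points), with 95% intervals from a limma fit over all 21349 detected probes (lines; n = 3 arrays per group). Black marks the brightest probe, used for the gene, and grey the others; all intervals include 0.

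Proteins that act with integrins and laminins were listed in 7 groups of 100 genes in all. Of these, 94 had a named probe and 76 were tested. Limma called 0 of them, 2 had an unadjusted p under 0.05 (TNS2 and SDC4, both below 0), and 28 lay above and 48 below 0, with a median of -0.01. Of the 7 that separated the groups, 6 had the inhibitor values below. Such separation occurred in 13% of all genes, with the inhibitor values below in 6.23%. The unadjusted threshold was reached by 7.66% of all genes, and 50% of all genes lay above 0.

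The link from the beta tail to actin was represented by 18 tested adaptors, 6 above and 12 below 0. TLN1 and the kindlin FERMT2 were detected, as were the other 2 kindlins. The smallest p-values belonged to TNS2, a tensin (-0.22 ± 0.07, adjusted p = 0.601 in limma), and PARVA, a parvin of the complex around the kinase ILK (-0.14 ± 0.08, adjusted p = 0.71). In both the 3 inhibitor values lay under the control values. TNS2 was detected on 5 arrays. Of 14 signalling genes 5 lay above and 9 below 0, led by DOCK1, an activator of the GTPase RAC1 (-0.14 ± 0.07), and GIT2, a scaffold of focal adhesions (-0.11 ± 0.07).

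Genes that hold integrins inactive or move them through the cell included 7 tested, 1 above and 6 below 0, with ITGB1BP1, which competes with talin for the beta tail, at -0.15 ± 0.08 and SHARPIN, an inhibitor of beta-1 activation, at -0.18 ± 0.16. Among 10 membrane partners, 4 above and 6 below 0, the tetraspanin TSPAN4 lay at -0.14 ± 0.08 and BSG (basigin) at -0.10 ± 0.07. None of these 4 genes passed limma's test, with adjusted p-values of 0.713, 0.817, 0.727 and 0.747 in that order.

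Other components of the basement membrane were 14 genes, of which 8 were tested, 3 above and 5 below 0. The nidogens NID1 and NID2, which bridge laminin and collagen IV, and the proteoglycan HSPG2 did not pass the detection filter. The chains COL4A1 (-0.20 ± 0.11, adjusted p = 0.718 in limma) and COL4A2 (-0.21 ± 0.10, adjusted p = 0.681) of the main collagen IV had the smallest p-values. Of 10 laminin receptors other than integrins, DAG1 and RPSA are not analysed here. The other 8 were all detected on at least 3 arrays, beside 64.1% of all named genes, with 2 above and 6 below 0. SDC4, a syndecan of focal adhesions, lay at -0.23 ± 0.10 (adjusted p = 0.624 in limma) and SDC2 at -0.16 ± 0.09 (adjusted p = 0.718). SDC2 was near background, detected on 4 arrays with log2 values of 4.48 to 4.79, and so was BCAM, detected on 5 arrays with 4.54 to 4.86. Of 11 integrin ligands tested, 7 lay above and 4 below 0, with THBS1 (thrombospondin) at 0.15 ± 0.08 and FBN1 (fibrillin) at -0.23 ± 0.14.

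Promoter sequence was compared between detected and undetected members as a description. RefSeq's table for GRCh38.p14 held a promoter for 25 of the 36 genes, and the 250 bases before the annotated start were searched for the letters CG, which read the same on both strands. Such CG-rich promoters are typical of genes active in many tissues. The 19 detected members held 1 to 32 CG, with a median of 12, and the 6 undetected ones 0 to 23, with a median of 2. These 6, of 13 undetected members, were all integrins, while the detected ones were 11 integrins and 8 laminins. Among integrins alone the medians were 16 for detected and 2 for undetected genes. Over all named genes in the table, detected ones had a median of 20 and undetected ones of 6, and 93.6% of all promoters held at least 1 CG.

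The promoters of ITGB1, detected on all 6 arrays, of ITGB6, detected on none, and of ITGA11, detected on 1, are shown because the first 2 lie at the ends of this range and the last runs against it. All 3 genes lie on the minus strand, at chr10:32958231-32958480 (32 CG), chr2:160200273-160200522 (0 CG) and chr15:68432164-68432413 (23 CG), and capitals mark each CG. ITGA10 and LAMB4, both detected, held 1 each, and ITGA8, not detected, held 19. A count of CG is no measure of methylation, which was not assayed, and other starts of these genes were not searched.
ITGB1 promoter: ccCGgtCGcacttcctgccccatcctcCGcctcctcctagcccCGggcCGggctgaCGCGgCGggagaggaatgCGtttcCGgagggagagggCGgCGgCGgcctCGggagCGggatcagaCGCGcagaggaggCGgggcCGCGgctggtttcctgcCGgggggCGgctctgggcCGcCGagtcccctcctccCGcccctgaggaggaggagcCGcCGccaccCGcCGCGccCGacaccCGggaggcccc
ITGB6 promoter: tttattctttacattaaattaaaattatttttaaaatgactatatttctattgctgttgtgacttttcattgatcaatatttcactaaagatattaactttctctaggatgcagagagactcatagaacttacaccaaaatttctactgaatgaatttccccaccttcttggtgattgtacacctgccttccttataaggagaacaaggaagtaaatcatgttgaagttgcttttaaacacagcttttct
ITGA11 promoter: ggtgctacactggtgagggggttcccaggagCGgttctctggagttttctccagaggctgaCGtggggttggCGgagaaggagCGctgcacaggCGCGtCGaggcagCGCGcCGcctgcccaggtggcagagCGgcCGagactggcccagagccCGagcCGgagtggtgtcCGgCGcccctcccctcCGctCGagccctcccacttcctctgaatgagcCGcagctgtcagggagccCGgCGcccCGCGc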

How the data were processed

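Total RNA of ES-2 cells was measured on Illumina bead arrays of 48803 probes, 3 per group. In the deposited array files each probe has a mean signal intensity, an SD over beads, a bead count and a detection fraction between 0 and 1, per the file headers; 1 minus the fraction served as detection p. BeadStudio is named in the submitters' processing notes, its version is not. The authors' deposited value table holds intensity values with a median of 47.2 on every array; how they were made is not stated there. Bead addresses were matched to probe names by their ranks over the 6 arrays, which was unique for all 48803 probes. GEO's platform annotation named 1 gene for 28098 probes, several for 13 and none for 20692; the last 2 kinds entered no gene test. RefSeq changed 0 symbols.

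The steps of neqc in limma 3.58.1 (R 4.3.3) corrected background and normalized by quantiles, with an offset of 16, giving log2 values. The background was inferred from the probes' signals and detection p, and no control probes were used. Probes with a detection p under 0.05 on at least 3 of 6 arrays were kept, and the brightest stood for its gene. lmFit and eBayes compared the groups, 2-sided, with Benjamini-Hochberg adjustment over all 12087 genes and a threshold of 0.05. The fit was tested on simulated data. An exact permutation test of 3 against 3 arrays cannot go below 0.1 and was not used. Slides and scan dates are unknown here, so batches were not examined.

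Members and gene lists were chosen with earlier results of these data known. The rule for genes with values on every array took members past either threshold, the smallest p in each role class, the detected laminin-binding subunits and laminin chains, ITGB1 and ITGB4. The other tested members were added after their values were seen. In each partner list the 2 smallest p-values are named, and further list genes only for their detection. Alternatives covered the replicate number as a block, normalization, background, offset, filter, prior, array weights, probe choice and leaving out each array.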

Additional observations from a re-analysis of the deposited data

How the results depend on the processing

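In all 18 alternatives limma called 0 integrin or laminin genes and 0 partner genes. Over all genes it called 5 without normalization between arrays (HILPDA, MYBPC1, SNAR-A1, HNRNPA1P33 and PXDN, named after their values were seen), where 318 genes had an unadjusted p under 0.05 in place of 926, and 0 in the other alternatives. The cause was not tested. Replicate numbers did not pair the arrays (correlations of the deviations of same-numbered arrays of 0.0199, 0.00309 and -0.00607), and with the replicate block 0 genes were called and 879 had an unadjusted p under 0.05.

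The median difference of the members, -0.0016, came to -0.0306 when arrays were left unnormalized and to -0.0275 with median scaling, where the median of all genes lay at -0.0135 and -0.0104. It was -0.0189 with array quality weights and 0.0371 with second probes, and ran from -0.0469 to 0.0016 with 1 array left out, the lowest without control replicate 3; the value without inhibitor replicate 1 was -0.0192. The count of 23 detected members was 22 at a detection p under 0.01, 20 on all 6 arrays, 28 on at least 1, and 23 by the brightest probe alone.

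Of the 23 members, 10 kept their direction in every alternative and 13 turned in at least 1. LAMA5 turned to -0.031 and ITGA5 to -0.016 without normalization between arrays, and to -0.027 and -0.013 after median scaling. With array weights LAMB3 came to 0.0088, LAMA5 to -0.01 and ITGA1 to -0.019, and LAMB3 came to 0.00047 in the deposited value table. Second probes gave 0.075 for LAMB1, 0.082 for ITGB5, 0.056 for LAMB3 and 0.051 for LAMA4. With 1 array left out, differences that turned ranged from -0.155 to 0.015 for LAMB1, -0.034 to 0.036 for LAMB3, -0.057 to 0.073 for LAMA5, -0.019 to 0.073 for ITGA5, -0.072 to 0.095 for ITGA1, -0.115 to 4e-04 for ITGA10, -0.147 to 0.103 for ITGA6, -0.091 to 0.179 for ITGA7, -0.098 to 0.052 for ITGB8, -0.281 to 0.064 for LAMB2 and -0.252 to 0.074 for LAMB4. Among members that did not turn with 1 array left out, the ranges were 0.023 to 0.105 for ITGA2, 0.054 to 0.135 for ITGA3, 0.049 to 0.155 for ITGA4, 0.031 to 0.181 for ITGAE, 0.052 to 0.291 for ITGAV, 0.054 to 0.145 for ITGB1, -0.077 to -0.0069 for ITGB2, -0.178 to -0.00094 for ITGB3, -0.084 to -0.035 for ITGB5, -0.323 to -0.243 for LAMA2, -0.125 to -0.047 for LAMA4 and 0.033 to 0.079 for LAMC1. Probes near background, such as those of ITGA7, ITGB8, LAMA2 and LAMB4, limit what could be seen of small differences.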

Other observations

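Extreme values of the members were spread over the arrays. Among the 23 genes tested, the lowest of the 6 values fell on inhibitor replicates 1, 2 and 3 in 5, 2 and 6 genes and on control replicates 1, 2 and 3 in 4, 1 and 5. The highest value fell on the inhibitor replicates in 1, 5 and 2 genes and on the control replicates in 4, 4 and 7, so control replicate 3 held the highest value most often. The 15 member probes detected on no array had signals of 27.5 to 50.5 intensity units.

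Markers of other cell types were present in part. CDH5, a cadherin of endothelial cells, was detected on all 6 arrays at 951.1 to 1210.4 intensity units, and PECAM1 at 72.7 to 98.5, while VWF was detected on 0 arrays and KDR and TEK on 2 each. Of fibroblast markers, PDGFRA and FAP were detected on all 6 arrays, PDGFRB on 5 and DCN on 3, and LUM on 0. The platelet genes GP9 and PF4 were detected on 0 arrays, PPBP on 1 and GP1BA on 6.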
